A study of Arabidopsis thaliana with 12 samples.

Results

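HAT2 (locus AT5G47370) is an Arabidopsis thaliana gene for a class II homeodomain-leucine zipper protein. It was 1 of the 16746 probe sets that the platform annotation pairs with a single gene, out of 28583 probe sets in all, and was chosen by its symbol because its level had been seen to move with auxin treatment. Its levels and its auxin change are therefore given as a description, with no test, while comparisons that did not lead to the choice are tested. Wild-type seedlings of the Col-0 accession, 7 days old per the labels, were shaken in liquid medium, 10 to a tube, and total RNA of whole seedlings was hybridised to Affymetrix Gene 1.1 ST arrays. The 4 groups were auxin (IAA, indole-3-acetic acid) at 1 µM for 3 h, mock (0.1% DMSO) for 3 h, the same IAA for 15 min and mock for 15 min, with 3 arrays each, numbered 1 to 3. The experiment was repeated on 3 different days. The times are those of the sample titles, since the labels' treatment text names another early time.

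Homeodomain-leucine zipper proteins are a plant family of transcription factors in which a leucine zipper pairs the molecules and the homeodomain binds DNA. Class II members act mostly as repressors and carry a motif that recruits co-repressors of the TOPLESS kind, and the class is known from shade avoidance and leaf polarity. HAT2 itself is known as a gene that auxin raises early in seedlings, and its overexpression gives long hypocotyls and epinastic cotyledons. Auxin acts through TIR1/AFB receptors, which mark Aux/IAA repressors for breakdown and so free the ARF factors that drive early auxin genes.

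Arrays differed in the width of their values. On arrays 2 and 3 of all groups the interquartile span of the values was 3.89 to 3.92 log2 units. On array 1 it was 2.88 in IAA 3 h, 3.79 in mock 3 h, 3.46 in IAA 15 min and 3.53 in mock 15 min. HAT2 is a bright gene, and bright genes read low on an array with narrow values, so HAT2 differences are also given after level correction, in which each array's linear trend with brightness was removed. The label states whole seedlings. Of 7 root markers listed 2 were measured, and of 7 green shoot markers 1, and a root and a shoot marker were bright. PYK10, a root-enriched beta-glucosidase gene, averaged 11.23 to 11.42 in the 4 groups, and RCA, the rubisco activase gene of green tissue, averaged 10.48 to 10.59. EXPA7, a root hair expansin gene, was dimmer and averaged 4.04 to 4.28, below the array medians of 4.72 to 4.79. In whole seedlings, a change in the cells that hold a transcript and a change of its amount per cell cannot be told apart.

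HAT2 was higher with IAA on every array. After 3 h its log2 level was 8.64, 9.64 and 9.89 in IAA seedlings, against 7.94, 7.88 and 7.86 in mock seedlings. After 15 min it was 9.66, 9.99 and 10.16 in IAA seedlings, against 7.38, 8.24 and 8.21 in mock seedlings. The lowest IAA array at each time therefore stood above the highest mock array of that time. The IAA 3 h array numbered 1 was the nearest to mock, and it is also the array with the narrowest values.

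**Figure D1:**
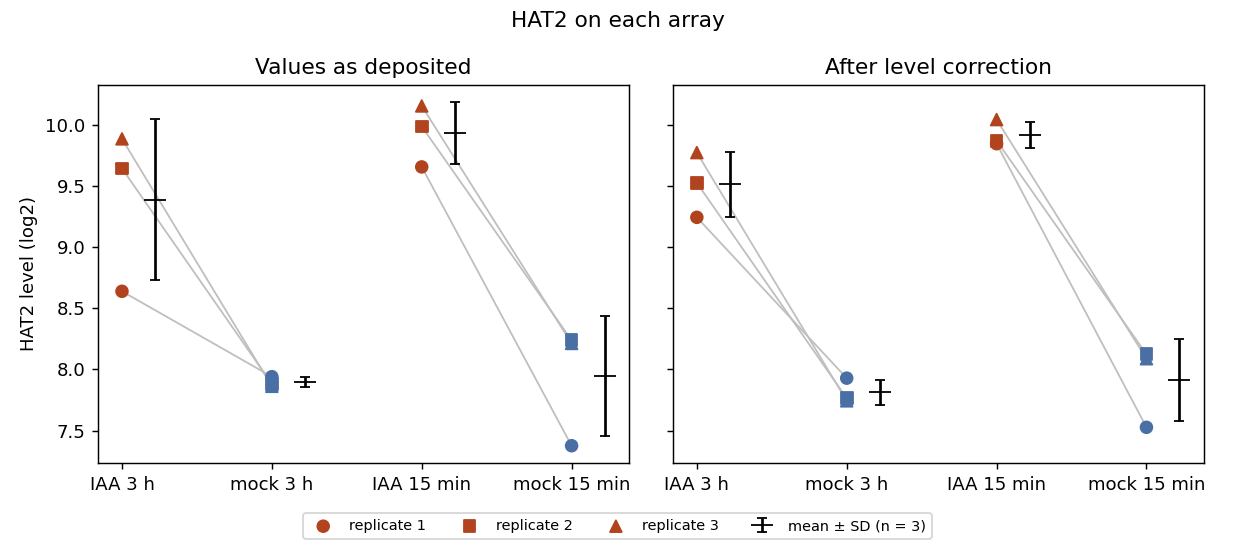
Log2 level of HAT2 on each of the 12 arrays (vertical axis) in the 4 groups, as deposited (left) and after level correction (right). Grey lines join IAA and mock arrays of the same number, and black marks are the mean ± SD (n = 3). All 6 IAA arrays lie above all 6 mock arrays in both panels, and IAA 3 h array 1 moves up by the most, to 9.24, and stays the lowest of the IAA arrays.

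The order of the group means was IAA 15 min (9.93 ± 0.25), IAA 3 h (9.39 ± 0.66), mock 15 min (7.94 ± 0.49) and mock 3 h (7.89 ± 0.04; log2 level, SD, n = 3 each). As deposited, the IAA groups overlapped each other and so did the mock groups. After level correction the IAA groups no longer overlapped, with 9.24, 9.53 and 9.77 at 3 h against 9.85, 9.87 and 10.04 at 15 min, so whether they overlap depends on the processing, and no test is given. The mock groups overlapped in both cases, but only through mock 15 min array 1. Mock 15 min arrays 2 and 3 lay above all mock 3 h arrays in both cases. The IAA 3 h and mock 15 min groups did not overlap, and their nearest arrays stood at 8.64 and 8.24. Of the probe sets with 1 gene, 97.5% to 99.03% lay below HAT2 on the IAA 3 h arrays and 91.8% to 92.7% on the mock 3 h arrays. At 15 min the share was 99.1% to 99.3% with IAA, against 89.6% to 94.1% in mock.

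At 3 h the mean log2 difference of IAA over mock was 1.50, or 2.82-fold. The same-numbered differences were 0.70, 1.76 and 2.03 (SD 0.70), which is 1.62-fold to 4.07-fold. After level correction they were 1.32, 1.76 and 2.03 and the mean was 1.70 (SD 0.36, 3.26-fold). The low value of pair 1 thus moved toward the other pairs but stayed the lowest. Relative to the median of probe sets of similar brightness, pair 1 hardly moved (1.15 as deposited, 1.17 after correction).

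At 15 min the mean log2 difference of IAA over mock was 1.99, or 3.98-fold. The same-numbered differences were 2.28, 1.75 and 1.94 (SD 0.27), and after level correction they were 2.32, 1.75 and 1.96. Pair 1 was the highest here, and its mock array, at 7.38, was the lowest HAT2 value of the series. As deposited, the pairs lay closer together than at 3 h, all 3 between 3.36-fold and 4.86-fold. After level correction the SDs were nearer each other, 0.29 at 15 min and 0.36 at 3 h.

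Whether the HAT2 response was smaller at 3 h than at 15 min rested on pair 1. On the log2 scale, the 3 h change less the 15 min change came to -1.58, 0.01 and 0.08 in arrays 1, 2 and 3 (mean -0.50, SD 0.94). After level correction these values were -1.01, 0.01 and 0.07. In arrays 2 and 3 alone the rise was 3.72-fold at 3 h and 3.6-fold at 15 min, so these arrays show no lower response at 3 h. How far the narrow values of array 1 account for its share was not tested beyond that correction.

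No change of HAT2 with time in the tube alone passed the test. This comparison was not used to choose the gene. Mock levels averaged 7.89 at 3 h and 7.94 at 15 min, a log2 difference of -0.05 (SE 0.31, 95% interval -0.73 to 0.64, limma adjusted p 0.999, n = 3 against 3). The interval leaves room for changes of either sign, and pairs 1 to 3 gave 0.57, -0.36 and -0.35. Over all 17504 probe sets with a gene name, 0% were called in this contrast (limma adjusted p under 0.05), and 499 had an unadjusted limma p under 0.05. Without the arrays numbered 1, mock 3 h was lower than mock 15 min by a log2 difference of -0.35 (SE 0.11, 95% interval -0.60 to -0.11). Its limma p was 0.010 before adjustment and 0.232 after, which does not pass either. The count over all probe sets did change in that setting, to 118 called between the mock groups. In IAA seedlings the log2 differences of 3 h over 15 min were -1.02, -0.34 and -0.27, so arrays 2 and 3 stood lower at the later time by a similar amount with IAA and in mock.

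**Figure D2:**
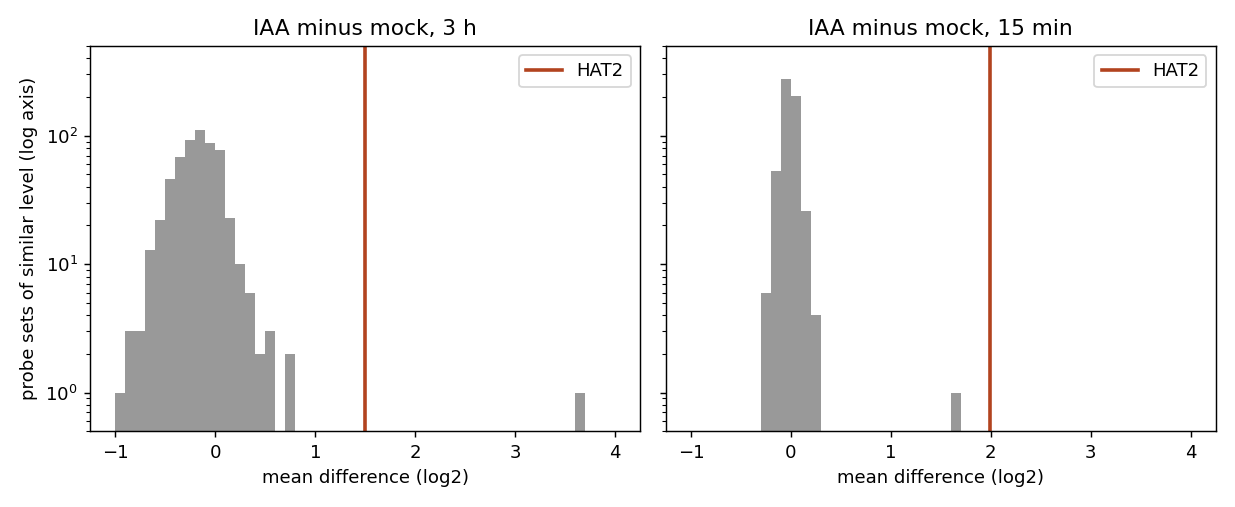
Mean log2 difference of IAA over mock (horizontal axis) for the 570 single-gene probe sets whose mean level lies within 0.5 of that of HAT2, counted in bins (vertical log axis), at 3 h (left) and 15 min (right). The vertical line is HAT2, at 1.50 and at 1.99, and the isolated bar to the right of the main peak in each panel is GH3.3.

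Among genes of similar brightness HAT2 stood far from the bulk. The comparison took the 570 probe sets with 1 gene whose mean level over the 12 arrays lay within 0.5 log2 units of the 8.79 of HAT2. At 3 h their IAA changes had a median of -0.16 and an SD of 0.28, and 99.8% lay below HAT2. Only GH3.3, whose product conjugates auxin to amino acids, rose by more (log2 change 3.64), and the highest of the remaining probe sets reached 0.72. At 15 min the median was -0.02 and the SD 0.10, and 100% lay below HAT2. GH3.3 came next with 1.63, and no other exceeded 0.26.

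The place of HAT2 was lower in pair 1 at 3 h than in the other pairs. At 3 h 16, 1 and 1 of the 570 rose by more in pairs 1, 2 and 3, and at 15 min 0, 1 and 0 did. In pair 1 at 3 h the similar-level probe sets themselves had a median of -0.45, against 0.02 and -0.01 in pairs 2 and 3. Relative to that median HAT2 was higher by 1.15, 1.75 and 2.04 in the 3 pairs at 3 h, and by 2.31, 1.75 and 1.96 at 15 min. After level correction the pair 1 median at 3 h was 0.14, and HAT2 stood 1.17, 1.75 and 2.04 above the medians of the 3 pairs. The spread of HAT2 within groups, pooled over the 4 groups, was 0.43 log2 units, against a median of 0.27 for the similar-level probe sets, of which 75.8% were less variable.

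Among all 16746 probe sets with 1 gene, 14 rose by more than HAT2 at 3 h and 1 at 15 min. The 1 at 15 min was LBD29, a lateral root initiation factor gene, with a log2 change of 2.69, and LBD16, of the same family, came just below HAT2 with 1.70. At 3 h the nearest were AT1G62770, at 1.63, and AT2G13422, at 1.49. The 14 at 3 h included GH3.3, LBD29 and GH3.1, and also IAA29 and WES1. Among probe sets with no gene name, 27 had a larger rise than HAT2 at 3 h and 6 at 15 min.

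A rise of at least 1 log2 unit at both times was shown by 7 probe sets with 1 gene, HAT2 included. They were LBD29, HAT2, LBD16, GH3.1, GH3.3, RTFL13 and AT2G18010, and RTFL13 and AT2G18010 were picked only once their values had been seen. The 15 min change was 133% of the 3 h change for HAT2, 137% for LBD16, 141% for RTFL13 and 107% for AT2G18010. For GH3.1 and GH3.3 it was 47.7% and 44.8%, and for LBD29 76.4%. By pair, the 15 min change was the larger in 2 of 3 for LBD16 and RTFL13. It was the larger in 1 of 3 for HAT2, AT2G18010 and LBD29, and in 0 for GH3.1 and GH3.3. RTFL13 and AT2G18010 were dim, with mean levels of 2.43 and 3.28. Pair 1 of RTFL13 rose by only 0.30 at 3 h and 0.17 at 15 min. In arrays 2 and 3 alone, HAT2 changed by 1.89 at 3 h and 1.85 at 15 min, LBD16 by 1.64 and 1.73, and GH3.1 by 3.62 and 1.78. In those arrays HAT2 and LBD16 had nearly equal changes at both times, while the 2 GH3 genes had over 1.5 log2 units more at 3 h.

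**Figure D3:**
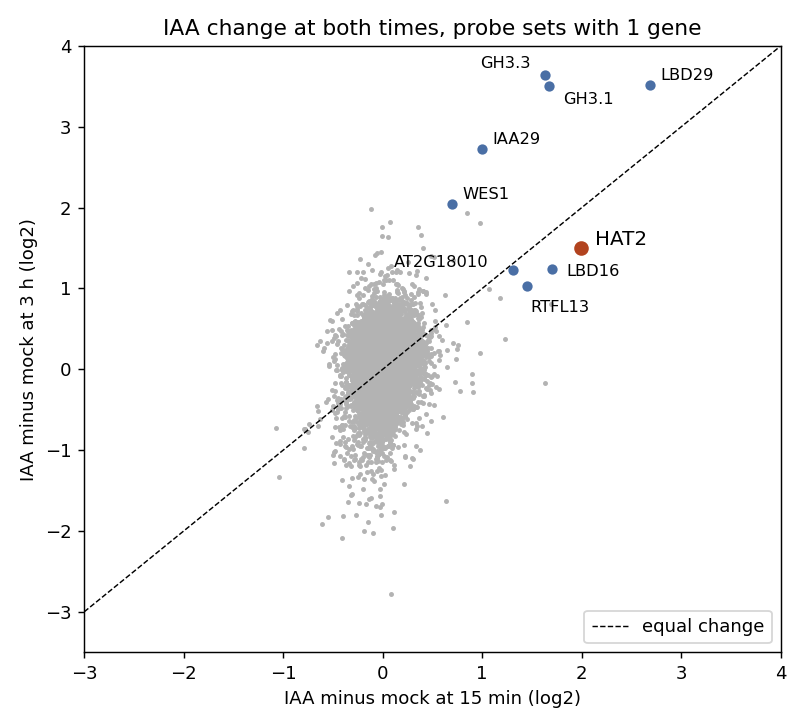
Mean log2 difference of IAA over mock at 3 h (vertical axis) against that at 15 min (horizontal axis) for each probe set with 1 gene (grey), with HAT2 in red, other named genes in blue and a dashed line of equal change. The comparisons at the 2 times share no arrays. HAT2 lies at 1.50 and 1.99, below the line with LBD16, while GH3.1, GH3.3, IAA29 and WES1 lie above it.

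Of the genes listed around HAT2, few could be matched to a probe set by name, and the rest were not analysed here. The 10 lists held 122 loci besides HAT2, of which 16 were measured, and 5 lists had no measured member. These were the class I and class IV homeodomain-leucine zipper genes, the TOPLESS co-repressors, the TIR1/AFB receptors and the ARF factors. HAT2 was the 1 measured gene of the 10 of class II. PHV, a class III gene of leaf polarity, had a log2 change of -0.02 at 3 h (SE 0.15) and -0.10 at 15 min (SE 0.15), with limma adjusted p 0.975 and 1. PIF7, a bHLH factor gene of shade signalling, had changes of -0.65 (SE 0.22, limma adjusted p 0.685) and -0.03 (SE 0.22, adjusted p 1).

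The measured auxin genes that passed were GH3 synthetases and 1 Aux/IAA repressor gene. At 3 h, 3 of 6 measured GH3 genes and 1 of 8 measured Aux/IAA genes rose, and 0 fell, against 0.171% of all 17504 probe sets called higher and 0.0686% called lower (limma adjusted p under 0.05). With the replicate number as a block the same members passed, against 0.257% called higher and 0.257% called lower over all. GH3.1 rose by a log2 change of 3.51 (SE 0.21), GH3.3 by 3.64 (SE 0.38), WES1, also known as GH3.5, by 2.04 (SE 0.27) and IAA29 by 2.73 (SE 0.25), with limma adjusted p 3.23e-05, 0.00227, 0.0109 and 0.00081. The call of WES1 was lost without any one of mock 3 h arrays 1, 2 and 3 or IAA 3 h arrays 2 and 3. Over the 16 measured members of the lists the median log2 change was 0.24 at 3 h, against 0.06 over all 17504. After level correction it was 0.06, against 0.01 over all. Most of the Aux/IAA members were dim, with 6 of the 8 at mean levels between 1.74 and 2.89, near the low end of the arrays.

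At 15 min 0 of the 16 passed, and 0% of all probe sets were called by limma, with 111 at an unadjusted p under 0.05. With the replicate number as a block, 0.0229% were called, and GH3.1 was the 1 of the 16 (log2 change 1.67, adjusted p 0.00240). The median change of the 16 was 0.07 at 15 min, against 0.00 over all. Between the mock groups 0 of the 16 passed.

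Genes whose pattern over the arrays was most like that of HAT2 were ranked by Pearson correlation over the 12 arrays after the mean of each replicate number was taken out. Of 2576 single-gene probe sets with a range of group means of at least 0.5, 6 had r of at least 0.9 and 0 had r of -0.9 or lower, and the median r was 0.05. The 12 arrays share 4 groups and 3 numbers, so they are not 12 independent points, and no p is given. AT5G41400 came first (r = 0.975), followed by LBD16 (0.961), AT3G50340 (0.948), AT5G66580 (0.934), AT4G14819 (0.908), AT2G36220 (0.903), AT1G67900 (0.8995) and AT1G78070 (0.894). The ninth had r of 0.888, so the list has no sharp end.

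**Figure D4:**
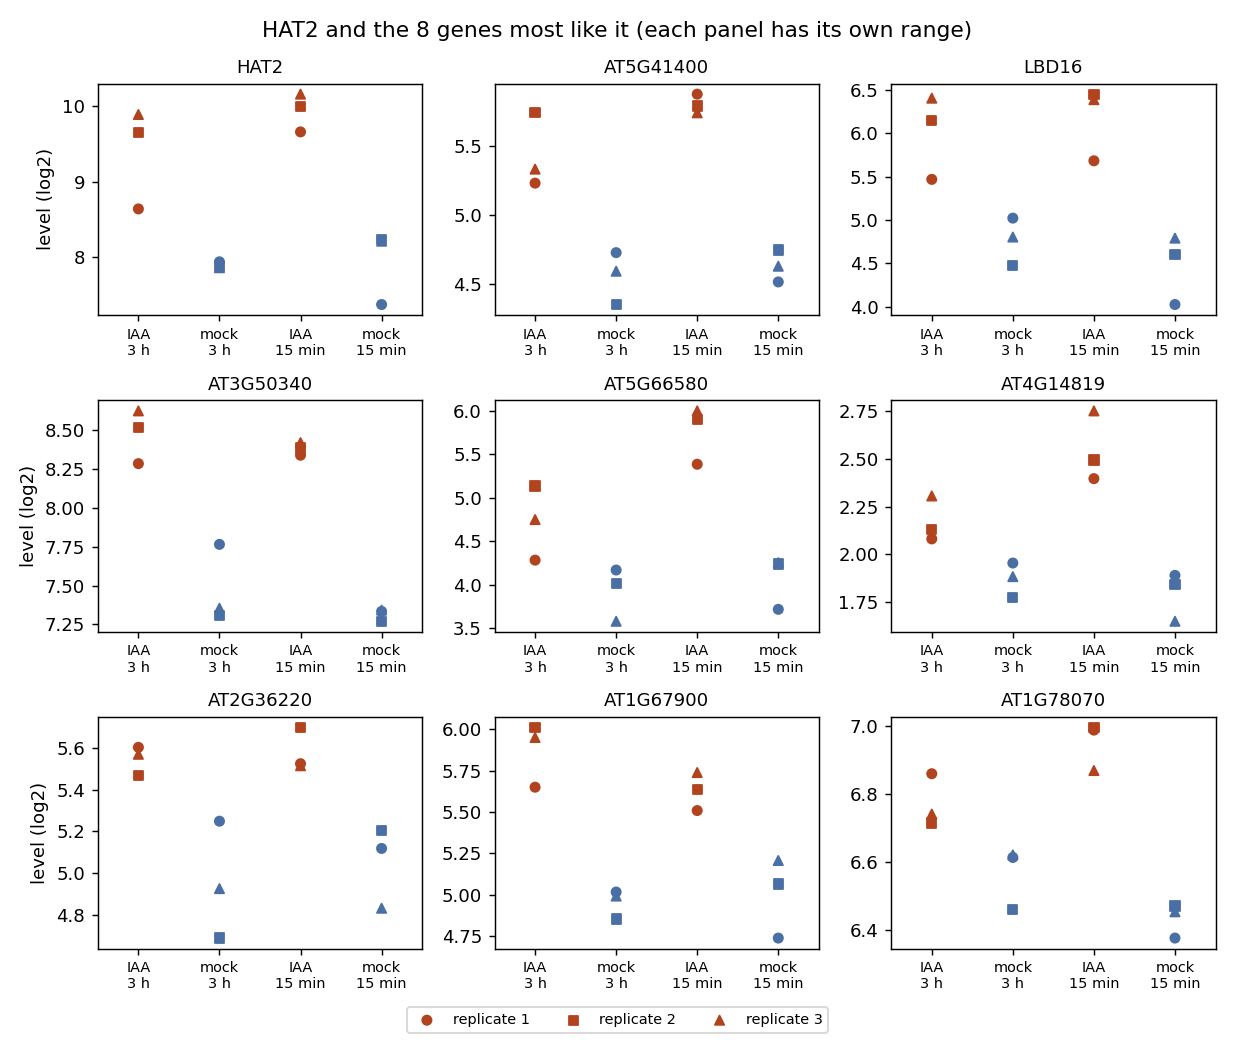
Log2 level (vertical axis, own range in each panel) of HAT2 and the 8 genes most like it on the 12 arrays in the 4 groups. In each panel the IAA arrays (red) lie above the mock arrays (blue) of the same time. The genes span levels from about that of AT4G14819, with a mean of 2.10, to AT3G50340, with a mean of 7.91.

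The 8 genes were all higher with IAA in 3 of 3 pairs at each time, as their choice by likeness favours. AT5G41400 had log2 levels of 5.23, 5.74 and 5.33 in IAA seedlings at 3 h, against 4.73, 4.35 and 4.59 in mock seedlings. At 15 min it had 5.88, 5.79 and 5.74 in IAA seedlings, against 4.51, 4.74 and 4.63 in mock seedlings. Its mean changes were 0.88 at 3 h and 1.17 at 15 min. The mean change was larger at 15 min in 6 of the 8 genes and larger at 3 h in AT2G36220 (0.59 at 3 h, 0.53 at 15 min) and AT1G67900 (0.92 at 3 h, 0.63 at 15 min).

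LBD16 had levels of 5.47, 6.15 and 6.40 in IAA seedlings at 3 h, against 5.02, 4.47 and 4.8 in mock seedlings. At 15 min LBD16 stood at 5.68, 6.45 and 6.39 in IAA seedlings, against 4.02, 4.60 and 4.79 in mock seedlings. Its change in pair 1 at 3 h, 0.45, was far under those of pairs 2 and 3, 1.68 and 1.60, as for HAT2. AT5G66580 showed the same, with 0.11 in pair 1 against 1.13 and 1.17.

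Pair 1 gave the lowest change at 3 h in 7 of the 8 genes, which their choice by likeness over the same arrays favours. The exception was AT1G78070, with 0.25, 0.25 and 0.12 in the 3 pairs. Pair 1 was also the lowest at 3 h for WES1 (1.35, against 2.52 and 2.26) and LBD29 (2.79, against 4.30 and 3.47). For GH3.1 it was the lowest by less, with 3.3, 3.63 and 3.6. A low pair 1 was not shared by all genes that rose with IAA. Pair 1 was the highest at 3 h for AT2G13422 (3.08, against 0.66 and 0.75) and AT2G18010 (1.71, against 1.48 and 0.48). These 2 genes were dim, with mean levels of 2.65 and 3.28. Dim genes read high on an array with narrow values, such as IAA 3 h array 1 (slope on mean level -0.165). Both LBD16 and AT5G66580 have mean levels near the middle of the arrays (5.35 and 4.62). Level correction left the mean changes of LBD16 and AT5G66580 at 3 h at 1.24 and 0.76, against 1.24 and 0.80 as deposited. The correction is a straight line on level, so it moves genes near the middle little whatever the state of an array. IAA 3 h array 1 also had the lowest median correlation with the other arrays, 0.940, against 0.971 to 0.992 for the rest. The cause of the low pair 1 was not tested. Without the arrays numbered 1, 3 of the 8 genes were again among the 8 most like HAT2. AT5G41400 was among the 8 under all 18 alternatives tried, and LBD16, AT3G50340 and AT5G66580 under 17.

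No measured gene next to HAT2 on its chromosome showed a change of comparable size. Of the 5 protein-coding genes on either side in the RefSeq gene table of TAIR10.1, 9 of 10 had a probe set of their own. Their log2 changes lay between -0.44 and 0.31 at 3 h and between -0.28 and 0.43 at 15 min, and 0 of the 9 passed at either time by limma, with or without the replicate block. Of all probe sets 0.24% were called at 3 h without the block and 0.514% with it. At 15 min these shares were 0% and 0.0229%, so 0 of 9 is near the share over all probe sets. The highest at 15 min was the adjacent gene AT5G47380 (0.43, SE 0.15), with 0.29, 0.26 and 0.75 in the 3 pairs. AT5G47360 on the other side changed by 0.19 (SE 0.20), with -0.28, 0.39 and 0.45. The probe sets of AT5G47340, AT5G47350 and AT5G47360 were dim, with mean levels of 2.00, 1.85 and 2.78.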

How the data were processed

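The authors deposited log2 expression values per probe set. The submitters' processing notes name RMA and oligo, with no version. A genome build is not given in the sources used here, and positions are left out. Level correction subtracted from each array a straight line of its deviations on the row's mean level. The 12 columns were used as deposited. Of 28583 rows, 16746 were paired with 1 gene, 758 with several and 11079 with none. Names were updated through the RefSeq table of TAIR10.1, with 16601 found by gene number, 96 through the locus tag, and 49 kept the platform's symbol. A locus with several rows was given by its brightest.

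limma 3.58.1 in R 4.3.3 was run on the 17504 named rows with the 4 groups in 1 fit and Benjamini-Hochberg adjustment, and was tested on simulated data. Called means adjusted p under 0.05. Python 3.11.15 and pandas 2.3.3 did the rest. Similar level means within 0.5 log2 units, and the 0.5 minimum range applied to the likeness ranking. The members, lists and tests were chosen with earlier results of these data known. Chosen in addition after seeing the data were the look at neighbouring genes and at rises at both times. The genes named are HAT2, the up to 3 members per list with the largest change and every called member, the 8 most like HAT2, up to 5 similar-level genes with a larger rise at each time, and those just above and below it in the order of change.

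The main limma fit did not pair arrays, since the labels do not say that replicate numbers pair samples, and the replicate block was an alternative. The numbers were used to form the same-numbered differences of the IAA contrasts. Deviations from group means of IAA and mock arrays had correlations of 0.127, 0.117 and 0.172 (3 h) and 0.781, 0.65 and 0.639 (15 min), all over 0.1. Between mock 3 h and mock 15 min they were 0.063, 0.081 and 0.206. That numbers stand for days is not stated. Between IAA 3 h and IAA 15 min, groups of different times, the correlations were 0.705, 0.579 and 0.611. Array 1 had narrow values in IAA 3 h and in both 15 min groups (interquartile span 2.88, 3.46 and 3.53). It was less narrow in mock 3 h (3.79), the group shared by the 2 comparisons with low correlations. Whether that width gave the correlations was not tested. The correlations alone do not show that arrays of the same number belong together. The number of arrays limits the precision, and p-values measure the spread between these arrays. Alternatives were other normalizations, filters, prior, windows, measures of likeness and left-out arrays.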

Additional observations from a re-analysis of the deposited data

How the results depend on the processing

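HAT2 was higher with IAA at both times under quantile normalization, after level correction, with each array left out and without all arrays numbered 1: the log2 difference ran from 1.25 to 1.89 at 3 h and from 1.71 to 2.14 at 15 min, highest at 3 h without all arrays numbered 1 and lowest at 15 min without mock 15 min array 1. Its place among similar-level probe sets stayed at 99.8% to 100% at 3 h and at 100% at 15 min under all 18 alternatives. The mock contrast of HAT2 passed under none of its 19 alternatives (log2 difference -0.35 to 0.10, both signs), and with the replicate block its adjusted p was 0.975. The replicate block called 90 genes at 3 h, against 42 without it, and 4 genes at 15 min, against 0. With all rows tested 93 were called at 3 h and 12 at 15 min. At 15 min quantile normalization called 4 and level correction 2. With arrays left out the count ran from 8 to 163 at 3 h, from 0 to 11 at 15 min and from 0 to 118 between mock groups, the highest each without all arrays numbered 1. At 3 h it was 8 without IAA 3 h array 2, 9 without IAA 3 h array 3, mock 3 h array 1 or mock 3 h array 2, and 16 without mock 3 h array 3. It was 27 without IAA 15 min array 3 or mock 15 min array 2 and 25 without mock 15 min array 3. At 15 min it was 5 without IAA 3 h array 1 and 1 without IAA 15 min array 1. Of the 16 list members, 3 or 4 passed at 3 h throughout. At 15 min GH3.1 was the 1 that passed with the replicate block, all rows, quantile normalization or level correction, and 0 or 1 passed with arrays left out, namely GH3.1 without IAA 15 min array 1, IAA 3 h array 1 or all arrays numbered 1. Of the 8 genes most like HAT2, quantile normalization shared 5, Spearman correlation 4 and a minimum range of 1 shared 4. With arrays left out 3 to 8 were shared, 5 without any one of mock 3 h, IAA 15 min or mock 15 min array 1. The cause of these moves was not tested.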
